A study of Mus musculus with 24 samples.

Results

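The genes described here encode the proteins of the mitochondrial ribosome. They were taken as every protein-coding gene of the deposited table of normalized counts whose symbol starts with Mrpl or Mrps followed by a digit. The rule found 77 of the 15456 genes in the table, 48 named for the large subunit (Mrpl) and 29 for the small subunit (Mrps), and all 77 were among the 14974 genes tested. RNA was measured in the medial prefrontal cortex (mPFC), punched from brain slices, of 24 mice (BALB/C in the labels and BALB/c OlaHsd in the methods), which the methods give as male and the labels as postnatal week 11, with 1 library per mouse and 6 mice in each of 4 groups. Control mice, labelled as untreated, received PBS by injection and by gavage according to the methods. The duloxetine group received daily injections of this blocker of serotonin and norepinephrine reuptake. The *R. flavefaciens* group received this live anaerobic gut bacterium by gavage, and the last group received both treatments. All mice were of the same inbred strain, and no engineered allele is named. The reads recovered from the table ranged from 12811413 to 15607343 per mouse. The 8 markers of cortical excitatory neurons, of which *Slc17a7* was the most abundant, were all in the table and summed to 38540.5 ± 1562 normalized counts in control mice (SD, n = 6).

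Mitochondria keep a small genome of their own, and its mRNAs encode core subunits of the respiratory chain. These mRNAs are translated inside the organelle by a dedicated ribosome, related to that of bacteria. Its rRNAs come from the mitochondrial genome, whereas its proteins are encoded in the nucleus, made in the cytoplasm and imported. Some of these proteins have bacterial counterparts and others are found only in mitochondria. Neurons depend on oxidative phosphorylation, and defects in single mitoribosomal proteins are known to impair respiration. The names do not always give the place of the protein, since Mrps30 and Mrps18a sit in the large subunit and Mrps36 is known as a subunit of the 2-oxoglutarate dehydrogenase complex.

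Promoter windows are shown because most of these genes had a higher mean with *R. flavefaciens* than in control. In the RefSeq promoter table (GRCm38.p6, 250 bases before to 50 after each start), 68 of the 77 symbols had an entry, in 74 windows. *Mrpl4*, *Mrpl13*, *Mrpl15*, *Mrpl19*, *Mrpl38*, *Mrpl54*, *Mrps28*, *Mrps34* and *Mrps35* were not matched. Both strands were searched for GCGCA followed by any base and GCGC (NRF1), CCGGAAG (ETS factors such as GABP) and AAGATGGCG (YY1), letters bound by factors known to drive nuclear genes of mitochondria. The ETS letters were in the windows of 25 of the 68 genes (36.8%), against 9.93% of all 27025 genes with a window and 18.3% of the 11123 of them that were tested. The NRF1 letters were in 13 genes (19.1%, against 5.19% and 10.7%). The YY1 letters were in 8 genes (11.8%, against 1.64% and 3.25%). Matches of different motifs overlapped in 0 member windows, and 40 of the 68 genes held at least 1 of the 3 motifs (58.8%, against 15.1% and 28.6%). The windows below were chosen from genes described in the next paragraphs because they held a match, shown in capitals. Of the 27 genes described there that had a window, 12 held 0 matches, among them *Mrpl20*, *Mrpl46* and *Mrps10*. Those of *Mrpl34* (chr8:71464676-71464975, plus strand) and *Mrps33* (chr6:39810887-39811186, minus strand) held the ETS letters, that of *Mrpl12* (chr11:120484387-120484686, plus strand) the NRF1 letters, and that of *Mrps21* (chr3:95871465-95871764, minus strand) both.
Mrpl34: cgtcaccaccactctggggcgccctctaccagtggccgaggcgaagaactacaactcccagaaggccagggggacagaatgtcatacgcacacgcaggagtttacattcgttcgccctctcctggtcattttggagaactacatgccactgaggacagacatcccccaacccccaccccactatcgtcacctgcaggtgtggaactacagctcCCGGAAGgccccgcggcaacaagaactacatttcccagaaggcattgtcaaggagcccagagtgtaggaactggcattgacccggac
Mrps33: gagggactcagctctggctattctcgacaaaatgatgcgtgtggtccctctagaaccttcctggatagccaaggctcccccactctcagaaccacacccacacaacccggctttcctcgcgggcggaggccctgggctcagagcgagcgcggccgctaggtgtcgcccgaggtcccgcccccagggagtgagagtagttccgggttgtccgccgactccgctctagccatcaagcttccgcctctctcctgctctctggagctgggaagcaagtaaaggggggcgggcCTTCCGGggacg
Mrpl12: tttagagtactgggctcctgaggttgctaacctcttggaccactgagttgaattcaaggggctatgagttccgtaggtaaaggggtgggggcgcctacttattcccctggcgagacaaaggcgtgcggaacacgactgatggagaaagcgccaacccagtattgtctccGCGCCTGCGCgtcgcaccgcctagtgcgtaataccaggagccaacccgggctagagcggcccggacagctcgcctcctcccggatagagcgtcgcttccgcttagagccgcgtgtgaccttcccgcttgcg
Mrps21: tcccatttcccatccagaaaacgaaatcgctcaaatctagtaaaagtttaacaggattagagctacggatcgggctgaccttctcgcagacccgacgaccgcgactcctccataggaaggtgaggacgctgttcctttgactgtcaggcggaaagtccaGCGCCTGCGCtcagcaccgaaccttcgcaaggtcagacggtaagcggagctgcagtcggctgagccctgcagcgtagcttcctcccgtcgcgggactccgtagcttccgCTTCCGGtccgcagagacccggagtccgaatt
A match describes letters in a window, and binding was not measured.

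The libraries of the *R. flavefaciens* group were not alike, and 2 of them stood apart. A relative level was computed for each mouse as the mean, over the 77 genes, of log2(value + 1) minus the gene's mean over all mice. Control mice lay between -0.075 and -0.025, and duloxetine mice between -0.052 and -0.00019. In the *R. flavefaciens* group the relative level was 0.25 in mouse 9_3, 0.12 in 7_2, 0.043 in 8_4, 0.026 in 9_1, -0.0097 in 9_2 and -0.020 in 8_3. All 6 of these mice lay above all 6 control mice, but by unequal amounts, with 9_3 and then 7_2 highest of all 24 mice. The group given both treatments lay between -0.032 and 0.047, also above the controls except where its lowest mouse, 11_3, fell among them. Mouse 9_3 had the highest value of the 24 mice for 51 of the 77 genes, and for 14.9% of all genes tested. The median coefficient of variation of a member was 6.14% in control, 6.71% in duloxetine, 10.5% in *R. flavefaciens* and 7.00% with both treatments. The fit was repeated without 9_3, and without both 9_3 and 7_2.

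**Figure D1:**
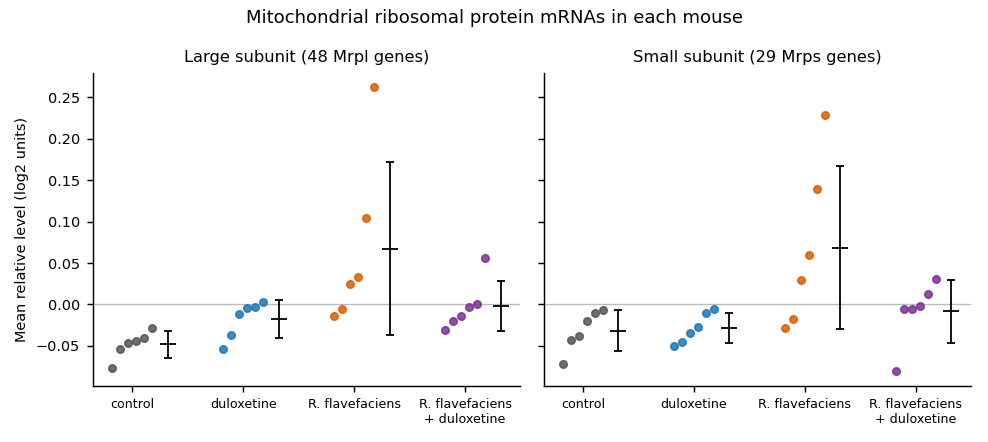
Mean relative level (y axis, log2 units) of the large subunit genes (left) and the small subunit genes (right) in each mouse, by group; points are mice, and the mark and bars are the group mean ± SD (n = 6). The *R. flavefaciens* group spreads furthest, with mouse 9_3 at the top.

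All 77 mRNAs were detected in mPFC, with means over the 24 mice from 81.1 to 728 normalized counts. Together they took 0.168% ± 0.00182 of all normalized counts in control mice and 0.184% ± 0.0153 in the *R. flavefaciens* group (SD, n = 6). Per kilobase of transcript, the scale on which genes can be set side by side, the median control level was 202 normalized counts per kb, against 96.0 over all genes tested. It was 213 per kb for the large and 170.1 per kb for the small subunit. The highest levels per kb were those of *Mrps21*, a small subunit protein with a bacterial counterpart (683), *Mrpl41*, a large subunit protein specific to mitochondria (567), and *Mrps18a* (521). The lowest were those of *Mrpl17* (44.4), *Mrpl47* (47.1) and *Mrpl1* (52.9), all 3 large subunit proteins with bacterial counterparts. Levels per kb thus spanned a wide range among these genes. Both the range and the order depend on the transcript taken for each gene. The genes lay on 17 chromosomes, 11 of them on chromosome 11, and 32 shared exon bases with another annotated gene. The partner lay on the opposite strand for 27 of these, where reads cannot be told apart because the library kit does not mark strand, and on the same strand for 7, with 2 genes in both counts.

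Most of these mRNAs had a higher mean in mice given *R. flavefaciens* alone than in control mice, but the differences were small and limma called none of them. The log2 fold change was above 0 for 70 of the 77 genes, where 50.8% of all genes tested were above 0, and its median was 0.10, against 0.0031 over all genes. Values ran from -0.20 for *Mrps18b* to 0.32 for *Mrpl52*. At an unadjusted p under 0.05 in limma, 24 members were higher and 0 lower, where 8.86% of all genes were higher and 10.8% lower. At an adjusted p under 0.05, limma called 0 members (0.0267% of all genes) and edgeR on recovered reads 0 (0.0267%; 25 at an unadjusted p under 0.05). DESeq2 on recovered reads gave an adjusted p to 62 of the 77 members and called 6 of them, *Mrpl4*, *Mrpl12*, *Mrpl20*, *Mrpl34*, *Mrpl46* and *Mrps33*, where it called 5.6% of all genes to which it gave one. Without mouse 9_3 the median was 0.074 and 14 members were higher at an unadjusted p under 0.05 (5.38% of all genes). Without 9_3 and 7_2 these values were 0.062 and 8 (4.6%). Without mouse 9_2, by contrast, limma called 6 members, and 30 were higher at an unadjusted p under 0.05. The share of all genes in that fit is not given here. In bulk tissue, more cells of a type and more RNA per cell cannot be told apart.

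**Figure D2:**
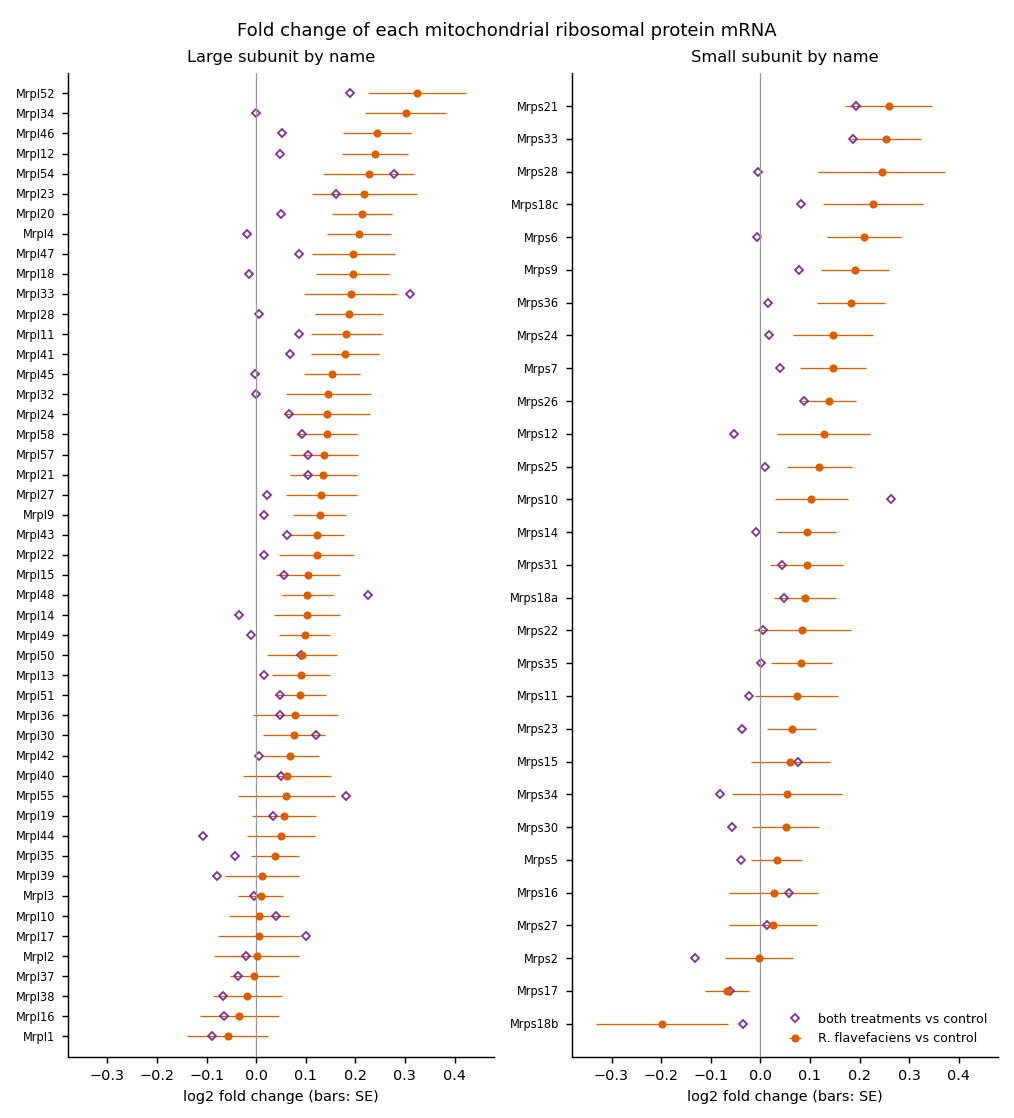
Log2 fold change against control of each of the 77 genes for *R. flavefaciens* (with SE bars) and for both treatments, with the large and the small subunit shown apart. For *R. flavefaciens* 70 genes lie above 0, and for both treatments 50; both comparisons share the 6 control mice.

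*Mrpl34*, a large subunit protein with a bacterial counterpart, had the smallest p-value of the family in this comparison. Its normalized counts were 153, 180.0 and 192 (lowest, median and highest of 6 mice) in control and 185, 216 and 269.6 in the *R. flavefaciens* group. Of the 6 *R. flavefaciens* mice, 5 lay above every control mouse. The log2 fold change was 0.30 ± 0.082 (SE; limma adjusted p = 0.0756, with a range from 0.0269 to 0.454 over the alternatives that kept all mice or left out 9_3 and 7_2 together), and 0.24 without mouse 9_3.

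*Mrpl12*, which is also known to bind the mitochondrial RNA polymerase, had 336, 349.6 and 409 normalized counts in control and 396, 412 and 523 with *R. flavefaciens*. Of the treated mice 4 lay above every control mouse, and mouse 9_3 stood far above the other 5. The log2 fold change was 0.24 ± 0.066 (SE; limma adjusted p = 0.0795) and 0.18 without mouse 9_3. *Mrps33*, a small subunit protein found only in mitochondria, had 405, 419 and 442 in control and 424, 508 and 633 with *R. flavefaciens*. The lowest 2 treated mice lay within the control range and the other 4 above it. Its log2 fold change was 0.25 ± 0.071 (SE; limma adjusted p = 0.0803) and 0.19 without mouse 9_3.

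*Mrpl20*, a large subunit protein with a bacterial counterpart, depended less on that mouse. It had 355, 375 and 426 normalized counts in control and 399, 444 and 488 with *R. flavefaciens*, where mouse 9_1 was highest. The log2 fold change was 0.21 ± 0.060 (SE; limma adjusted p = 0.0806) and 0.21 without 9_3. *Mrpl46*, a large subunit protein specific to mitochondria, had 215, 247 and 266 in control and 261, 288 and 331 with *R. flavefaciens*. Here 5 of the 6 treated mice lay above every control mouse (0.24 ± 0.069, limma adjusted p = 0.0806). Its exons share 173 bases with those of *Mrps11* on the opposite strand, whose own log2 fold change was 0.073 ± 0.084. *Mrpl4* had 377, 425 and 489 in control and 431, 500.3 and 540.0 with *R. flavefaciens* (0.21 ± 0.064, limma adjusted p = 0.0943). *Mrpl52*, with the shortest transcript of the family at 418 bases, had 119, 127 and 155 and 136, 160.5 and 208 (0.32 ± 0.10, limma adjusted p = 0.0937). In all of these genes the groups overlapped. For 0 members did all 6 *R. flavefaciens* mice lie above all 6 controls, where 0.788% of all genes were so separated.

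Of the 7 members with a lower mean in the *R. flavefaciens* group, those with the smallest p-values were *Mrps17*, *Mrps18b* and *Mrpl1*. *Mrps17*, a small subunit protein with a bacterial counterpart, had 681, 699.8 and 751 normalized counts in control and 647, 669.6 and 741 with *R. flavefaciens*. Of the treated mice 5 lay below every control mouse, and mouse 9_1 lay among the highest controls. The log2 fold change was -0.067 ± 0.044 (limma adjusted p = 0.416). *Mrps18b* had -0.20 ± 0.13 (limma adjusted p = 0.429) and shares 638 exon bases with an antisense gene. Its log2 fold change ran from -0.30 without mouse 7_2 to -0.11 without mouse 8_3. *Mrpl1* had -0.058 ± 0.081 (limma adjusted p = 0.744), from -0.10 without control mouse 2_1 to -0.021 without mouse 8_4.

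**Figure D3:**
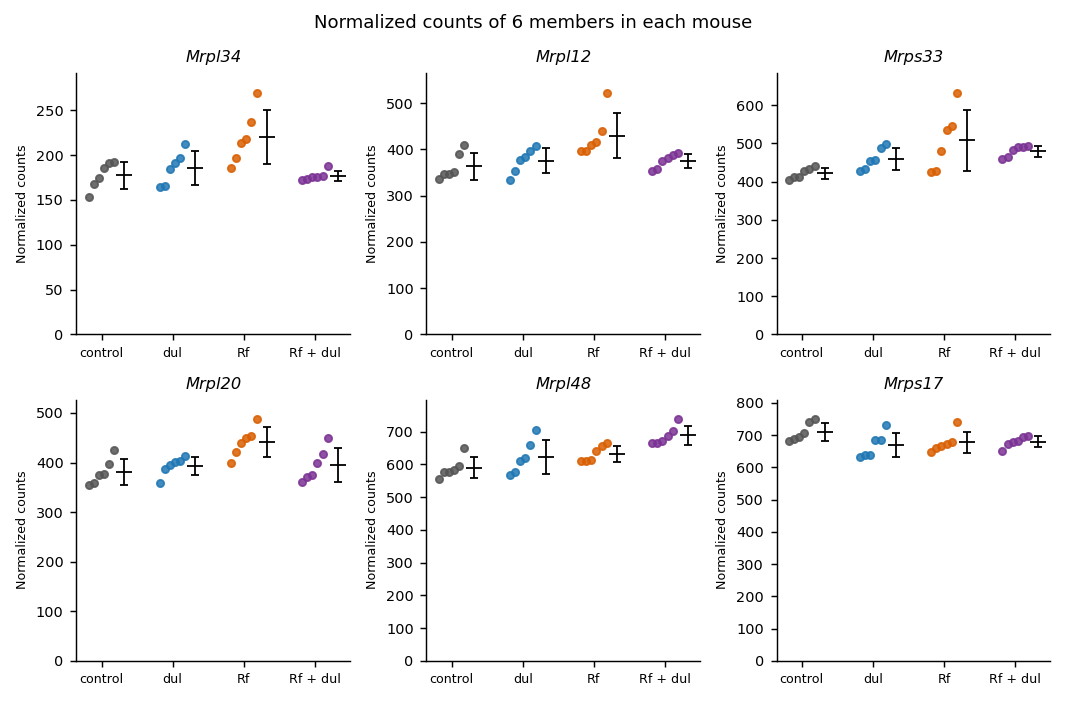
Normalized counts (y axis) of 6 members in each mouse for control, duloxetine (dul), *R. flavefaciens* (Rf) and both treatments (Rf + dul); points are mice, and the mark and bars are the mean ± SD (n = 6). *Mrpl34*, *Mrpl12* and *Mrpl20* have their highest medians with *R. flavefaciens* alone, and *Mrpl48* with both treatments.

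Some members have known roles beyond that of a structural protein, or names that mislead. *Mrpl58*, a peptidyl-tRNA hydrolase that rescues stalled ribosomes, stood at 398 ± 18.8 normalized counts in control and 441 ± 40.4 with *R. flavefaciens* (mean ± SD; log2 fold change 0.14 ± 0.061, limma adjusted p = 0.195). *Mrps12*, a protein of the decoding centre, stood at 305 ± 24.2 and 335 ± 50.2 (0.13 ± 0.093, limma adjusted p = 0.473), a difference smaller than the SD of the treated group. *Mrpl44*, related to RNase III, differed by 0.050 ± 0.069 on the log2 scale (limma adjusted p = 0.736). *Mrps6*, which shares exon bases with the inositol transporter gene *Slc5a3* on the same strand, had 178, 186 and 194 in control and 189.7, 218 and 245 with *R. flavefaciens*. Here 5 of the 6 treated mice lay above every control mouse (0.21 ± 0.075, limma adjusted p = 0.133). Of the proteins that sit outside the small subunit, *Mrps30* had 0.051 ± 0.068 (limma adjusted p = 0.723), *Mrps18a* 0.090 ± 0.062 (limma adjusted p = 0.438) and *Mrps36* 0.18 ± 0.068 (limma adjusted p = 0.143).

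Over all mice the large subunit had the higher median in each comparison with control, by small amounts, but for *R. flavefaciens* the difference turned to -0.0070 without control mouse 3_3. For *R. flavefaciens* the median log2 fold change was 0.11 over the large subunit, with 16 of 48 genes higher at an unadjusted p under 0.05, and 0.093 over the small subunit, with 8 of 29 (8.86% of all genes). Without mouse 9_3 the medians were 0.083 and 0.065, with 9 and 5 genes higher (5.38% of all genes). Without 9_3 and 7_2 they were 0.068 and 0.034, with 7 of 48 and 1 of 29 higher (4.6% of all genes). The difference between the subunit medians was 0.020 over all mice, 0.034 without 9_3 and 7_2, and 0.010 with Mrps30 and Mrps18a placed in the large subunit and Mrps36 left out. For duloxetine the medians were 0.024 over the large and -0.0063 over the small subunit. For both treatments they were 0.043 and 0.010, a difference that ran from 0.012 without mouse 12_2 to 0.049 without 11_4. With a trend on transcript length removed within each mouse, the *R. flavefaciens* medians were 0.050 and 0.027, with 8 and 3 genes higher (5.63% of all genes). The large and small medians were then -0.014 and -0.039 for duloxetine, and -0.028 and -0.049 for both treatments. In single mice, the large minus small relative level lay between -0.044 and -0.0023 in control, between -0.010 and 0.034 with duloxetine, between -0.035 and 0.034 with *R. flavefaciens* and between -0.033 and 0.078 with both treatments. All treated groups thus overlapped the controls, and the subunit difference was not tested. Split by ancestry, the medians for *R. flavefaciens* were 0.12 over 30 large subunit proteins with bacterial counterparts and 0.095 over 20 specific to mitochondria. They were 0.11 over 16 and 0.083 over 10 proteins of the same kinds in the small subunit. This order did not hold when mouse 9_3 was left out, with 0.078 and 0.084 in the large and 0.067 and 0.070 in the small subunit. With 9_3 and 7_2 left out the medians were 0.076 and 0.051 in the large and 0.029 and 0.077 in the small subunit. With the length trend removed they were 0.051 and 0.048 in the large and 0.050 and -0.0049 in the small subunit.

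Fold changes with *R. flavefaciens* went with transcript length across the whole transcriptome, and these genes are short. Their median transcript length was 1316 bases, against 3057 for all genes. Spearman's correlation between length and log2 fold change was -0.47 across 14958 genes and -0.43 across the 77 members, where genes are not independent replicates. All genes were divided by length into 10 bins of about equal size. In the shortest bin, which holds 36 members, the median log2 fold change was 0.15 over all 1497 genes and 0.13 over the members. In the next bin, with 13 members, it was 0.093 and 0.093. Over the shorter transcripts, where most members lie, their medians were thus close to those of all genes of that length. In each of the other 8 bins, which hold from 1 to 5 members each, the median of the members was above that of all genes (in bin 5, for example, 0.14 over 4 members and 0.013 over all genes). After a trend on length was removed within each mouse, the median over all members was 0.042 and 11 were higher at an unadjusted p under 0.05 (5.63% of all genes).

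The 2 mice with the highest levels of these mRNAs also had the highest levels of short transcripts, but the order of the other mice differed. The median relative level of the genes in the shortest bin was 0.31 in mouse 9_3, 0.12 in 7_2 and 0.11 in 8_4, against -0.0081 in 9_1, -0.010 in 8_3 and -0.020 in 9_2. In control mice it lay between -0.082 and -0.036. With both treatments mouse 12_2 had 0.082 and 11_3 had 0.035, where the members stood at -0.021 and -0.032, and duloxetine mouse 6_3 had 0.056, with the members at -0.00019. Across 24 mice, with group means taken off, it went with the relative level of the members at r = 0.85 (Spearman's rho 0.70), and at r = 0.62 without mice 9_3 and 9_2, the farthest from the median. The points share libraries, depth and normalization, and the shortest bin contains members. The part of library composition in the result was not tested.

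**Figure D4:**
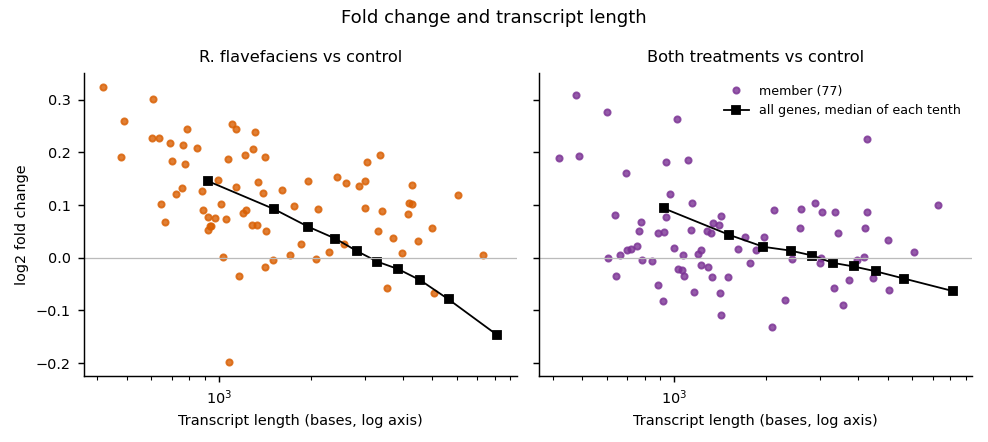
Log2 fold change (y axis) against transcript length in bases (x axis, log scale) for the *R. flavefaciens* group and the group given both treatments, each set against control, with the 77 members drawn over the medians of 10 length bins of all genes. For *R. flavefaciens* those medians fall from 0.15 in the shortest to -0.15 in the longest bin.

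Mice given both treatments had levels close to those of controls for most members. The median log2 fold change was 0.018, against 0.00072 over all genes, and 50 of the 77 members were above 0 (50.2% of all genes). At an unadjusted p under 0.05, 6 members were higher and 0 lower, where 8.08% of all genes were higher and 8.73% lower. The share of members that were higher was thus near that of all genes. With the length trend removed the median turned to -0.039, with 2 members higher and 6 lower (6.01% and 12.2% of all genes). It was 0.034 without control mouse 3_1, 0.050 with 75th percentile scaling, 0.0094 with quantile scaling and -0.0092 with the GC trend removed. At an adjusted p under 0.05 limma called 0 members (0.1% of all genes), edgeR 0 (0.114%; 6 at an unadjusted p under 0.05), and DESeq2 called *Mrpl48* and *Mrps10* (1.68%). For *Mrpl48*, *Mrps21* and *Mrps33* every mouse given both treatments lay above every control mouse, where 0.882% of all genes were so separated.

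*Mrpl48*, a large subunit protein specific to mitochondria, had 554, 581 and 649 normalized counts in control, 609, 627 and 664 with *R. flavefaciens* and 666, 680.1 and 739 with both treatments. The mice given both treatments lay above all control mice and all mice given *R. flavefaciens* alone. Against control the log2 fold change was 0.23 ± 0.051 (SE; limma adjusted p = 0.0574, from 0.00880 to 0.0963 over the alternatives; two-sided exact permutation p = 0.00216, the smallest that 6 against 6 mice can give). Its exons share 708 bases with those of *Rab6a* on the opposite strand. *Mrps10*, a small subunit protein with a bacterial counterpart, had 224, 242 and 275 in control and 265, 298 and 320.5 with both treatments. Of the treated mice 4 lay above every control mouse (0.26 ± 0.074, limma adjusted p = 0.112). *Mrps21* had 318, 330.3 and 349 in control and 355, 379 and 418 with both treatments (0.19 ± 0.088, limma adjusted p = 0.271).

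The other members with the smallest p-values for both treatments had similar fold changes. *Mrpl33* had 0.31 ± 0.094 (limma adjusted p = 0.125), *Mrpl54* 0.28 ± 0.092 (limma adjusted p = 0.152) and *Mrps33* 0.19 ± 0.071 (limma adjusted p = 0.201). Among members with a lower mean, *Mrps2* had -0.13 ± 0.068 (limma adjusted p = 0.321), *Mrpl44* -0.11 ± 0.069 (limma adjusted p = 0.429) and *Mrps17* -0.062 ± 0.044 (limma adjusted p = 0.483). Without mouse 11_3 the value of *Mrps2* was -0.087.

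Duloxetine alone gave small differences in these genes. The median log2 fold change was 0.019, against -0.0018 over all genes, and 46 of the 77 members were above 0 (49% of all genes). At an unadjusted p under 0.05, *Mrpl52* and *Mrpl54* were higher and 0 members lower, where 2.2% of all genes were higher and 1.63% lower. The median was 0.0097 without control mouse 1_1, and with the length trend removed it turned to -0.017, with 1 member higher and 2 lower (1.66% and 2.53% of all genes). At an adjusted p under 0.05 limma called 0 members (0% of all genes), and DESeq2 (0.00668%) and edgeR (0%) called 0, each with 1 member at an unadjusted p under 0.05. *Mrpl54* had 127, 128 and 139.9 normalized counts in control and 131, 159.7 and 183 with duloxetine. Of the duloxetine mice 5 lay above every control mouse (0.26 ± 0.092, limma adjusted p = 0.9996). *Mrpl52* had 0.21 ± 0.10, and *Mrpl46*, *Mrps15*, *Mrps33* and *Mrps10* had 0.14, 0.13, 0.12 and 0.11. On the lower side *Mrps11*, *Mrpl37* and *Mrps17* had -0.12, -0.089 and -0.087 (limma adjusted p = 0.9996 for each of these 8 genes).

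Mice given both treatments had lower means for most of these mRNAs than mice given *R. flavefaciens* alone. The median log2 fold change was -0.078, against 0.0019 over all genes, and 65 of the 77 members were below 0 (49.5% of all genes). At an unadjusted p under 0.05, 13 members were lower and 2 higher, where 9.9% of all genes were lower and 9.76% higher. The median was -0.046 without mouse 9_3, with 10 members lower and 3 higher (8.03% and 8.12% of all genes). Without 9_3 and 7_2 it was -0.022, with 5 lower and 4 higher (7.27% and 7.45%). *Mrpl34* was the single member that the main limma fit of all mice called in any comparison (2.23% of all genes were called here). It had 172, 175 and 188 normalized counts with both treatments, and 5 of these 6 mice lay below every mouse given *R. flavefaciens* alone. The log2 fold change was -0.30 ± 0.082 (SE; limma adjusted p = 0.0495, from 0.0222 to 0.241 over the alternatives). With 1 mouse left out in turn the call held in 4 of 24 fits, and without mouse 9_3 the log2 fold change was -0.24 (limma adjusted p = 0.111).

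DESeq2 called *Mrpl34* and *Mrpl4* for the same difference (4.07% of all genes) and edgeR *Mrpl34* (2.18%). *Mrpl4* had 383, 415 and 458 normalized counts with both treatments, with 4 of 6 mice below every mouse given *R. flavefaciens* alone (-0.23 ± 0.064, limma adjusted p = 0.0584). For *Mrpl12* every mouse given both treatments lay below every mouse given *R. flavefaciens* alone (0.828% of all genes; -0.19 ± 0.066, limma adjusted p = 0.114). For *Mrpl48* every one lay above (0.614% of all genes; 0.12 ± 0.051, limma adjusted p = 0.181).

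Whether the difference with *R. flavefaciens* was itself altered by duloxetine was tested as an interaction. Its median over the members was -0.10 (-0.0017 over all genes), with 0 members higher and 10 lower at an unadjusted p under 0.05, where 3.86% of all genes were higher and 3.67% lower. Without mouse 9_3 the median was -0.067 and 7 members were lower (2.58% of all genes), and without 9_3 and 7_2 these values were -0.048 and 6 (2.28%). With the length trend removed the median was -0.070. At an adjusted p under 0.05 limma, DESeq2 and edgeR each called 0 members (0%, 0% and 0% of all genes), with 10 members at an unadjusted p under 0.05 in each. *Mrpl46* (-0.33 ± 0.098) and *Mrpl34* (-0.37 ± 0.12) had the smallest p-values (limma adjusted p = 0.639 for both). Between both treatments and duloxetine alone the median was 0.021 (-0.0031 over all genes), but 0.00043 without mouse 10_2 and -0.0082 with the length trend removed. *Mrpl48* (0.15 ± 0.051) and *Mrpl33* (0.21 ± 0.094) were higher at an unadjusted p under 0.05 and 0 members lower, where 3.02% and 2.88% of all genes were. At an adjusted p under 0.05 limma, DESeq2 and edgeR called 0 members (0%, 0.00668% and 0% of all genes), with 2 members at an unadjusted p under 0.05 in each.

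The other lists of genes around mitochondrial translation had medians from -0.065 to 0.16 with *R. flavefaciens*, where 8.86% of all genes were higher and 10.8% lower at an unadjusted p under 0.05. Of 5 mitoribosomal proteins with other names, 3 were higher and 0 lower at an unadjusted p under 0.05 (median 0.16), and 1 was higher without 9_3 and 7_2 (median 0.11), led over all mice by *Aurkaip1* (0.21 ± 0.058, limma adjusted p = 0.0793) and *Chchd1* (0.29 ± 0.096, limma adjusted p = 0.110), both of the small subunit. Of 13 translation factors 0 were higher and 0 lower (median 0.047, but 0.023 without 9_3 and -0.0056 without 9_3 and 7_2), with *Tufm* (0.095 ± 0.052, limma adjusted p = 0.317) and *Mrrf* (-0.12 ± 0.066, limma adjusted p = 0.319) at the smallest p-values. Of 24 genes of assembly and rRNA maturation 2 were higher and 1 lower (median 0.089, but 0.058 without 9_3 and 0.027 without 9_3 and 7_2), led by *Fastkd2* (-0.23 ± 0.063, limma adjusted p = 0.0795) and *Ngrn* (0.20 ± 0.059, limma adjusted p = 0.0915). Of 19 mitochondrial aminoacyl-tRNA synthetases 1 was higher and 0 lower (median -0.062, but -0.00013 without 9_3 and -0.036 without 9_3 and 7_2), with *Lars2* (0.32 ± 0.12, limma adjusted p = 0.159) and *Iars2* (-0.091 ± 0.062, limma adjusted p = 0.429) first. Of 11 genes of mitochondrial transcription and mRNA stability 2 were higher and 1 lower (median 0.026, but -0.0052 without 9_3 and -0.023 without 9_3 and 7_2), with *Fastkd5* (0.42 ± 0.16, limma adjusted p = 0.150) and *Tfb2m* (-0.15 ± 0.065, limma adjusted p = 0.204) first. Of 9 factors that drive nuclear genes of mitochondria 0 were higher and 2 lower (median -0.065, but -0.038 without 9_3 and -0.021 without 9_3 and 7_2), *Ppargc1b* (-0.26 ± 0.084, limma adjusted p = 0.103) and *Yy1* (-0.098 ± 0.038, limma adjusted p = 0.157). Limma called 0 genes of these lists in this comparison. Between both treatments and *R. flavefaciens* alone it called 2 of the 13 translation factors, where 2.23% of all genes were called.

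The mRNAs that this ribosome translates differed between groups in another order than the mRNAs of its proteins. The 13 mRNAs of the mitochondrial genome had a median log2 fold change of 0.14 with *R. flavefaciens*, 0.25 with duloxetine and 0.36 with both treatments, beside 0.10, 0.019 and 0.018 for the mitoribosomal proteins, over the same control mice. At an unadjusted p under 0.05, 3, 13 and 13 of the 13 were higher (8.86%, 2.2% and 8.08% of all genes), led for *R. flavefaciens* by *mt-Co3* (0.26 ± 0.091, limma adjusted p = 0.129) and *mt-Nd3* (0.27 ± 0.11, limma adjusted p = 0.157). These 13 mRNAs are not independent replicates. In single mice their relative level lay between -0.27 and -0.091 in control and between -0.080 and 0.31 with duloxetine. It lay between -0.24 and 0.23 with *R. flavefaciens* and between -0.096 and 0.47 with both treatments. The *R. flavefaciens* median was 0.078 without mouse 9_3, with 1 of 13 higher, and with the length trend removed it was 0.030 with 0 higher. Between both treatments and *R. flavefaciens* alone, 13 of 13 were above 0, where 65 of 77 mitoribosomal proteins were below 0 (49.5% of all genes). Limma called *mt-Nd5* (0.38 ± 0.078, adjusted p = 0.0171) and *mt-Nd4l* (0.40 ± 0.083, adjusted p = 0.0171), where 2.23% of all genes were called. Nuclear complex I subunits, whose partners this ribosome makes, had medians of 0.19, 0.039 and 0.078 for the same 3 comparisons. With *R. flavefaciens* 26 of 36 were higher at an unadjusted p under 0.05, led by *Ndufa1* (0.34 ± 0.074, limma adjusted p = 0.0687) and *Ndufb9* (0.33 ± 0.072, limma adjusted p = 0.0687). Without mouse 9_3 the median was 0.13 with 22 higher, without 9_3 and 7_2 it was 0.097 with 11, and with the length trend removed it was 0.066 with 8. Cytoplasmic ribosomal proteins had 0.22, 0.082 and 0.13, with 71 of 82 higher with *R. flavefaciens*, led by *Rpl41* (0.37 ± 0.092, limma adjusted p = 0.0727) and *Rpl36a* (0.35 ± 0.089, limma adjusted p = 0.0727). Their *R. flavefaciens* median was 0.16 with 39 higher without mouse 9_3, 0.14 with 29 without 9_3 and 7_2, and 0.10 with 31 with the length trend removed. Of all genes, 5.38% were higher without 9_3, 4.6% without 9_3 and 7_2, and 5.63% with the length trend removed.

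**Figure D5:**
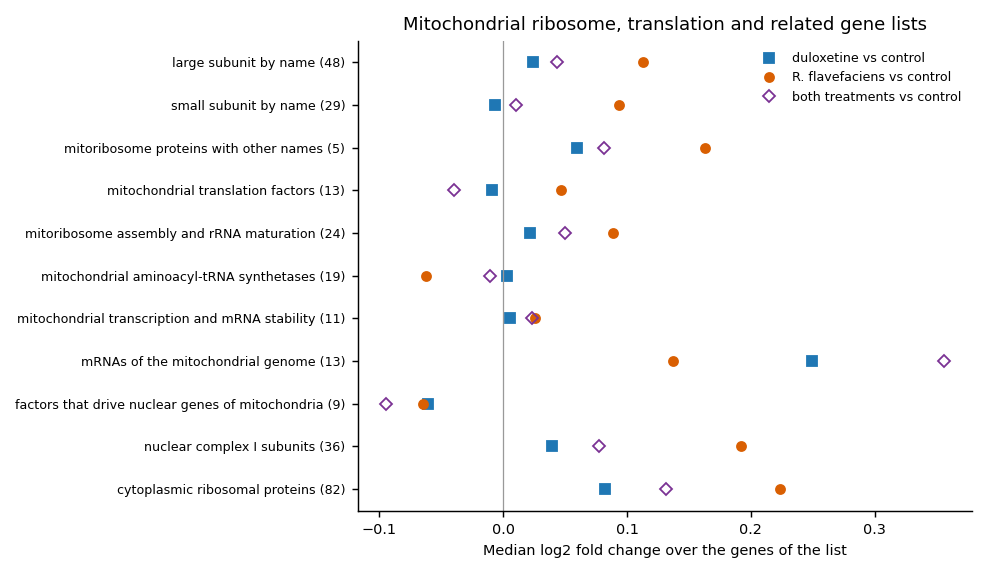
Median log2 fold change (x axis) of the genes of each list for duloxetine, *R. flavefaciens* and both treatments against the same control mice. Both mitoribosomal subunits have their highest median with *R. flavefaciens* alone, and the mRNAs of the mitochondrial genome with both treatments.

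Within groups the members varied together to a moderate degree. With group means taken off, the median correlation of a member with the mean of the other members was 0.46 over 24 mice, and 0.29 without mouse 9_3. Single pairs of members had a median of 0.19 over 2926 pairs. The members' mean went with that of complex I subunits at r = 0.94 (rho 0.85, and r = 0.85 without mice 9_3 and 8_3). For cytoplasmic ribosomal proteins r was 0.64 (rho 0.39, and r = 0.30 without the same mice). For the mRNAs of the mitochondrial genome r was 0.36 (rho 0.14, and r = 0.032 without them). These are descriptions of 24 mice whose values share libraries, normalization and the length trend.

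Markers of other cell types also differed between groups. With *R. flavefaciens*, 6 of 9 microglia markers were higher and 0 lower at an unadjusted p under 0.05 (8.86% and 10.8% of all genes), with a sum of 5289.8 ± 439 against 4639 ± 263 normalized counts in control (SD, n = 6) and *Csf1r* the most abundant. The count was 4 without mouse 9_3 (5.38% of all genes) and 3 without 9_3 and 7_2 (4.6%). The counts of the other markers below are over all mice only. Of 5 blood markers 4 were higher (598 ± 204 against 349 ± 65.7, *Hbb-bs* the most abundant), and of 6 inhibitory neuron markers 3 (10927 ± 388 against 10051 ± 464, *Gad1* the most abundant). Of 8 excitatory neuron markers 2 were lower (36654 ± 2625 against 38540.5 ± 1562). Of 8 astrocyte markers 2 were higher (60828 ± 7076 against 63227 ± 4009, *Slc1a2* the most abundant). Oligodendrocyte markers (33067 ± 16259 against 27156 ± 8754, *Mbp* the most abundant) and endothelial and pericyte markers (5046 ± 255 against 4783 ± 264, *Rgs5* the most abundant) had 0 of 10 and 0 of 8 higher. Mouse 8_4 had 7980.0 normalized counts of striatal markers (*Pde10a* the most abundant) and 791 of choroid plexus markers, against 2388 to 3546 and 25.5 to 108 in the rest of its group. Of the 6 choroid plexus markers, *Folr1*, *Kcne2* and *Aqp1* were not in the table, and *Kl* was the most abundant of the others. Mice 9_3 and 7_2, which had the highest mitoribosomal levels, had 2388 and 2579 of striatal markers. They had the lowest astrocyte marker sums of the 24 mice, 48714 and 56530, where every other mouse had at least 59291, and 9_3 had the highest microglia sum of its group, 6009. With the 8 astrocyte markers weighted equally, as a relative level, 9_3 stood at 0.065 and 7_2 at -0.038, where control mice lay between -0.19 and 0.079. With both treatments mouse 11_4 had 4904 of striatal markers, against 2574 to 3053 in the rest of its group. With both treatments, where the mitoribosomal median was 0.018, 7 of 9 microglia and 5 of 5 blood markers were higher (8.08% of all genes). The part of these cells in the values of the mitoribosomal genes was not tested.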

How the data were processed

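mPFC RNA of 24 mice was sequenced as poly(A) libraries with a kit that does not mark strand. According to the methods and the submitters' processing notes, the authors aligned reads with TopHat2 2.1.0 and Bowtie2 2.2.6 and normalized gene counts with DESeq2 1.18.1. The read counter and its strand setting are not given in the sources used here. The deposited values are these normalized counts, a signal that is not whole. Within a mouse 99.997% of the values above 0 were whole multiples of a single step (tolerance 0.0051 on the deposited scale), so reads were recovered for the count tools. The processing notes name mm9 and the methods GRCm38.p5 as the build. Member positions in the deposited table matched GRCm38 for 71 of 77 genes, so lengths, exon overlaps and promoter windows were taken from GRCm38.

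Genes with a mean of at least 10 were tested (14974) on log2(value + 1) with limma 3.58.1 (R 4.3.3, trend, 4 group means, 24 mice, two-sided, Benjamini-Hochberg within a comparison, threshold 0.05), so fold changes are on the log2(value + 1) scale and understate the change of low genes. DESeq2 1.42.0 and edgeR 4.0.16 on recovered reads were alternatives, as were a pseudocount of 0.1, a minimum mean of 50 or none, 75th percentile and quantile scaling, fits of the compared groups only, trends on length or GC removed within mice (loess span 0.3), the first number of the mouse labels as a block, and each mouse left out. The fit without mice 7_2 and 9_3 together was chosen after seeing the data. Over all genes, DESeq2 called 497 and edgeR 4 for *R. flavefaciens* against control. Single members were also compared by exact permutation over the 924 groupings of 12 mice into 6 and 6.

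The limma script was checked on simulated data with known changes. Of 50 genes each, it called 92% raised and 88% lowered by 1.0 on the log2 scale. At 0.4 it called 52% raised and 56% lowered, and smaller changes were not simulated. Genes were drawn independently, so a shift shared by many genes of a mouse was not part of the simulation. Members named in the text were those called by limma or DESeq2 in any comparison, the 6 higher and 3 lower with the smallest p in each comparison with control, the 2 with the smallest p in the other contrasts, the 3 highest and 3 lowest per kb, and 8 taken for role or name; of each pathway list the 2 genes with the smallest p were named. *mt-Nd5* and *mt-Nd4l* were added after their values were seen. The members and lists were chosen with earlier results of these data known. The labels do not say what the first number of a mouse stands for.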

Additional observations from a re-analysis of the deposited data

Results flagged for a closer look

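For the named members and the mean levels of all members and of each subunit, 128 groups of 6 mice were examined for a mouse far from the other 5 by Dixon's criterion, and 14 had one, where chance gives about 6.4. With both treatments, mouse 10_2 was far above the others in the large subunit mean relative level (0.056), in *Mrpl34* (188 normalized counts) and in *Mrps18b* (109.6). In the same group mouse 11_3 was far below the others in the small subunit mean relative level (-0.081), in *Mrps2* (287) and in *Mrps12* (214), and far above them in *Mrpl41* (508), and mouse 11_4 was far above in *Mrps6* (229). In the *R. flavefaciens* group mouse 9_3 was far above the others in *Mrpl12* (523) and *Mrpl44* (274), and mouse 9_1 in *Mrps17* (741). In the duloxetine group mouse 6_1 was far above in *Mrpl37* (563), mouse 6_3 far above in *Mrpl52* (171) and mouse 5_4 far below in *Mrps18a* (418). For the interaction of the treatments, the smallest limma adjusted p among the named members was 0.639.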

How the results depend on the processing

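Of the fits of named members under alternatives, 1167 kept their direction and their side of the threshold, 31 came to pass it, 24 no longer passed it and 0 turned direction. For *R. flavefaciens* against control, the members called were 6 with DESeq2 and 1 with the label number as a block, against 0. Of all genes, DESeq2 called 497 (5.6%) and the block 221 of 14974, against 4. Members higher at an unadjusted p under 0.05 were 8 without mice 7_2 and 9_3 and 11 with the length trend removed, against 24. The shares of all genes were 4.6% and 5.63%, against 8.86%. For duloxetine, the median was -0.017 with the length trend removed, and the members higher at an unadjusted p under 0.05 were 4 without 7_2 and 9_3 and 1 with DESeq2, edgeR, the length trend removed or quantile scaling, against 2. For both treatments against control, the median was 0.050 with 75th percentile scaling, -0.0092 with the GC trend removed and -0.039 with the length trend removed, the last with 2 members higher and 6 lower at an unadjusted p under 0.05. The members called there were 1 with 75th percentile scaling, without 7_2 and 9_3, with the block or with only the groups compared, and 2 with DESeq2. Of all genes, the block called 59 of 14974 and DESeq2 217 (1.68%), against 15. The shares of all genes in the other fits are not given here. For both treatments against duloxetine the median was -0.0082 with the length trend removed. For both treatments against *R. flavefaciens*, the members called were 0 with 75th percentile scaling, the GC trend removed, only the groups compared, or without 7_2 and 9_3, and 2 with DESeq2 or the block, against 1. Of all 14974 genes, DESeq2 called 610 and the block 533, against 334. With 1 mouse left out in turn, the members called for *R. flavefaciens* ranged from 0 to 6 (6 without mouse 9_2), those higher at an unadjusted p under 0.05 from 14 to 30 (14 without 9_3, where 5.38% of all genes were higher, and 30 without 9_2), and the large minus small difference from -0.0070 to 0.035. For duloxetine these last were 1 to 4 and 0.016 to 0.050. The members called ranged from 0 to 1 for both treatments against control and from 0 to 1 for both treatments against *R. flavefaciens*. The shares of all genes in the fit without mouse 9_2 are not given here, so its counts stand without a background. The causes of these shifts were not tested. No paired analysis was possible because the groups share no replicate numbers. The first label number is nested in the groups, and mice with the same number had a correlation of -0.045. With 6 mice a group, the largest difference of a member for *R. flavefaciens* against control, 0.32 on the log2 scale, was not called by limma.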
